A study of Mus musculus with 17 samples.

Results

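The 7 genes described here are Hras, Nras, Myc, Ccnd1, Rb1, Trp53 and Cdkn2a, oncogenes and tumour suppressors known from squamous tumours of the rodent forestomach and skin. They were chosen by name, and every probe whose RefSeq transcript belonged to one of them was taken: 11 of the 55681 probes on the array. Of these, 9 probes passed the filter on dim signal, with at least 1 for each gene, so that all 7 genes were among the 21384 genes tested. Of those 21384, 13856 carried a gene symbol, and the others stood under a transcript or probe name. Stratified squamous epithelium lines the forestomach, the first chamber of the rodent stomach. Benzo(a)pyrene (BaP) is a polycyclic aromatic hydrocarbon that cells convert to DNA-binding metabolites. Male MutaTMMouse animals, a transgenic strain that carries a bacterial reporter gene for scoring mutations, were 24 to 26 weeks old and were gavaged every day for 28 days. The groups were olive oil alone (control, 5 animals) and BaP in olive oil at 25, 50 and 75 mg/kg per day (4 animals each). The forestomachs were collected 72 hours later, and each array held RNA of 1 animal. The arrays measured transcript abundance in whole forestomach and did not read mutations, protein or phosphorylation.

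The genes belong to linked pathways of growth control. Hras and Nras encode small GTPases that pass growth factor signals to the RAF, MEK and ERK kinases, and Myc and Ccnd1 are among the genes induced downstream. Cyclin D1, the product of Ccnd1, activates CDK4 and CDK6, which phosphorylate RB, the product of Rb1, and so release E2F transcription factors. The Cdkn2a locus makes p16Ink4a, which inhibits CDK4 and CDK6, and p19Arf, which inhibits MDM2, the ubiquitin ligase that degrades p53. Trp53 encodes p53, a transcription factor of the DNA damage response whose activity is set largely by the stability and modification of the protein. Activated Ras genes and loss of Trp53 or Cdkn2a are recurrent in carcinogen-induced squamous tumours of mice.

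Every array carried forestomach RNA in the Cy5 channel and Universal Mouse Reference RNA, pooled from 11 mouse cell lines, in the Cy3 channel. Values below are log2 of Cy5 over Cy3, so 0 is the level of the reference RNA, and the changes are dose minus control. Because no array had its dyes swapped, a level against the reference holds any dye effect of the probe, whereas that effect is shared by the groups in a change. On each array 39.9% to 50.7% of the probes exceeded background clearly in Cy5, and the number of arrays limits the precision. The 11 squamous epithelium markers checked, among them Krt5, Krt14 and Trp63, were all tested, and their mean log2 ratio was 4.11 to 5.05 over the arrays. Glandular stomach markers (8 of 10 tested) had a summed normalized Cy5 signal of 961 to 100230 units at 75 mg/kg and 685 to 7158 units in control, and 522530 units on 25 mg/kg replicate 7. Control replicate 2 stood apart in B cell markers (3 of 6 tested), with a mean of 1.56, while every other array was at or below -0.17. The arrays lay on 3 slides, each holding arrays of all groups. In bulk tissue, fewer cells of a type and less RNA per cell cannot be told apart.

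Promoter sequence was available in RefSeq (GRCm38.p6) for 4 of the 7 genes, and no sequence is given for Myc, Ccnd1 and Rb1. The windows below run from 250 bases before a start site to 50 bases after it. They are shown for the 4 genes with an entry: Hras, Nras, Trp53 and Cdkn2a. Capitals mark GCGTG, the core recognised by the aryl hydrocarbon receptor that BaP binds, on either strand (CACGC on the strand shown). Hras lies at chr7:141193955-141194254 on the minus strand, and Nras at chr3:103058035-103058334 on the plus strand. Trp53 lies at chr11:69580109-69580408 on the plus strand, and the distal start of Cdkn2a, used by p19Arf transcripts, at chr4:89294570-89294869 on the minus strand.
Hras: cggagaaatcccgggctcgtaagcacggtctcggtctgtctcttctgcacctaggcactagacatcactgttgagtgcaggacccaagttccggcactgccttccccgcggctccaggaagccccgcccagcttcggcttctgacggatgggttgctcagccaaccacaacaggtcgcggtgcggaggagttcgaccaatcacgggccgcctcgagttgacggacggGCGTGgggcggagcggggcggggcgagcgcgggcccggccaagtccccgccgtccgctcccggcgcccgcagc
Nras: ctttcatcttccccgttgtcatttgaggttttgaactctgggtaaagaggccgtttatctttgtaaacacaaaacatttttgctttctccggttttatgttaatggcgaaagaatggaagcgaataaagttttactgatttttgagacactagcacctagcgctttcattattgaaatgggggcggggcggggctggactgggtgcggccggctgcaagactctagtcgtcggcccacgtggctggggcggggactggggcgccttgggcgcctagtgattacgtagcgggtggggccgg
Trp53: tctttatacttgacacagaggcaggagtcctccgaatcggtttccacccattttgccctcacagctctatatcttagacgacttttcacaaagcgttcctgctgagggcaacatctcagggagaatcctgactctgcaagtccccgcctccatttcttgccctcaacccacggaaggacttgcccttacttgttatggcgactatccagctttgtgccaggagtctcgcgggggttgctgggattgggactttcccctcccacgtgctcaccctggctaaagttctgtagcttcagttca
Cdkn2a: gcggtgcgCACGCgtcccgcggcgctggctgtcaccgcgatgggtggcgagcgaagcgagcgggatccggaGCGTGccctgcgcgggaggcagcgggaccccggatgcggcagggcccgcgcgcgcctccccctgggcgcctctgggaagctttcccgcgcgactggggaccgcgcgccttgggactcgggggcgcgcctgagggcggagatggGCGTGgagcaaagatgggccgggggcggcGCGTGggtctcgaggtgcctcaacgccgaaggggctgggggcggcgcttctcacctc
The distal Cdkn2a window held 4 such motifs, Hras held 1, and Nras and Trp53 held 0. The proximal Cdkn2a window, at chr4:89282143-89282442, also held 0. Among 32851 mouse promoter windows of the same length, 32.4% held at least 1. A match is a description of the letters in the window and not a binding site.

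No change of the 7 genes was detected at any dose by the test used. With limma's moderated test and Benjamini-Hochberg adjustment over all genes, 0 of 7 passed an adjusted p of 0.05 in any comparison. The share of all genes that passed was 0.014% at 25 mg/kg, 0.0468% at 50 mg/kg and 1.09% at 75 mg/kg. It was 0.0608% for 75 against 25 mg/kg and 1.33% for a straight line on dose. At an unadjusted p under 0.05, 2 of the genes passed at 25 mg/kg (3.26% of all genes), 0 at 50 mg/kg (6.84%) and 3 at 75 mg/kg (10.1%). By the same measure 1 passed for 75 against 25 mg/kg (4.73%) and 2 on the line (11.4%). Over the 7 genes, the widest interval at 75 mg/kg reached down to -0.59, for Cdkn2a, and up to 0.64, for Hras, which is 0.663-fold and 1.56-fold of control. These intervals hold for the loess scaling alone. With median centring the changes at 75 mg/kg were 0.64 for Hras, 0.62 for Nras, 0.62 for Myc and 0.63 for Ccnd1, where all genes shifted by 0.19, and 0 of the 7 passed. The arrays of a dose were not all higher or all lower than the control arrays for any of the 7. Of all genes, 0.562% had all arrays higher and 0.431% all lower at 25 mg/kg, 1.23% and 0.988% at 50 mg/kg, and 1.99% and 1.32% at 75 mg/kg.

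**Figure D1:**
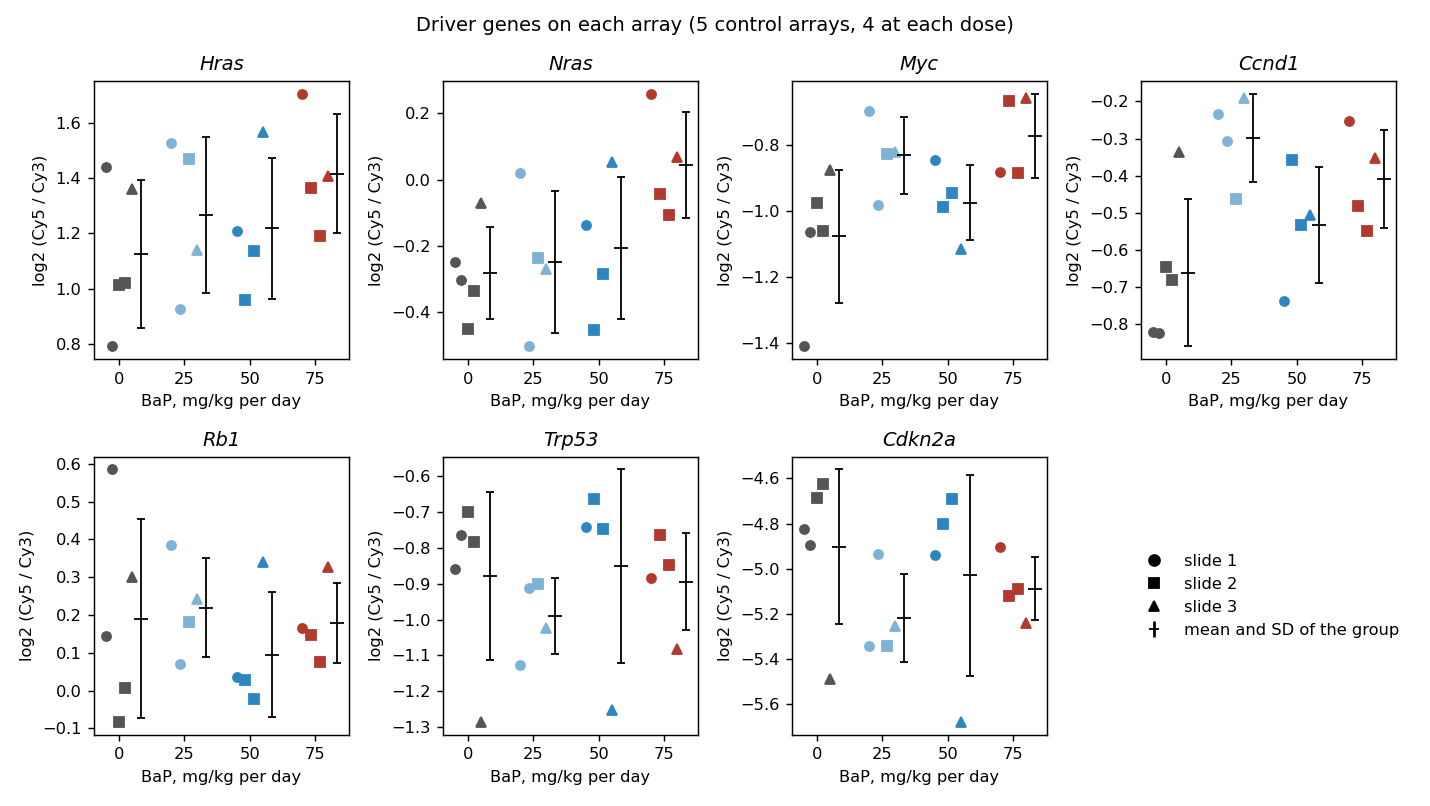
Log2 of Cy5 over Cy3 for the 7 driver genes on each of 17 arrays (y axis) by BaP dose in mg/kg per day (x axis, 0 is olive oil), with marker shape for the slide and bars for the group mean and SD. In every panel the arrays at 75 mg/kg overlap the control arrays, and the y axes differ between panels.

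Hras was the one member above the reference RNA on all arrays. Its log2 ratios were 1.71, 1.36, 1.19 and 1.41 at 75 mg/kg, against 1.44, 0.79, 1.01, 1.02 and 1.36 in control. Control replicates 1 and 5 lay within the range of the 75 mg/kg arrays, and the other 3 lay below it. The group means were 1.12 ± 0.27 in control, 1.27 ± 0.28 at 25 mg/kg, 1.22 ± 0.26 at 50 mg/kg and 1.42 ± 0.21 at 75 mg/kg (SD, n = 5 in control and 4 at each dose). The change at 75 mg/kg was 0.29 ± 0.16 (SE; limma adjusted p = 0.589), and neighbouring groups in this order differed by less than their SD. Within slides 1, 2 and 3 the change was 0.59, 0.26 and 0.04. With median centring of the arrays in place of loess, Hras averaged -0.16 in control, so its level relative to the reference depended on the scaling. A second Hras probe, for another transcript, was well above background on 0 of 17 arrays.

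Nras had the largest change of the 7 at 75 mg/kg, and its probes disagreed. The brightest probe gave 0.26, -0.04, -0.11 and 0.07 at 75 mg/kg, against -0.25, -0.30, -0.45, -0.34 and -0.07 in control. Only control replicate 5 reached the range of the 75 mg/kg arrays. Means were -0.28 ± 0.14 in control, -0.25 ± 0.21 at 25 mg/kg, -0.21 ± 0.22 at 50 mg/kg and 0.05 ± 0.16 at 75 mg/kg (SD). The step between 75 and 50 mg/kg, 0.25, exceeded the larger SD of those groups, and the lower steps did not. The change at 75 mg/kg was 0.33 ± 0.12, which is 1.25-fold (SE; unadjusted p = 0.0172, limma adjusted p = 0.341). Against 25 mg/kg it was 0.29 ± 0.13 (adjusted p = 0.991). The other 2 Nras probes, both well above background on all arrays, gave 0.12 ± 0.17 and 0.02 ± 0.11 at 75 mg/kg, and neither passed in a fit of all probes, where 0.859% did. With slide as a block the brightest probe gave 0.34 (adjusted p = 0.138), and within slides 1, 2 and 3 it gave 0.54, 0.32 and 0.14.

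No other gene of the RAS pathway lists passed the test at any dose with the loess scaling. RAS proteins and regulators had 0 of 18 tested genes called at 75 mg/kg, 4 of 18 with a positive change and a median of -0.14, against -0.01 for all genes, of which 48.1% were positive. Rras, a related GTPase, differed by -0.37 ± 0.17 (adjusted p = 0.482) and Rasal1, a GTPase-activating protein that switches RAS off, by 0.26 ± 0.16 (adjusted p = 0.62). The sign of the list's median depended on the scaling: median centring moved all genes by 0.19 and the list to 0.13, still 0.06 below the median of all genes. Of 18 MAPK cascade and ERK-induced genes, 0 passed, 10 were positive, and the median was 0.01, or -0.0013 with processed signals. In that setting Dusp4, a phosphatase that inactivates ERK, passed as lower, at -1.70 ± 0.36 (adjusted p = 0.0401). Dusp4 did not pass with loess, where the changes of the 18 genes ranged from -0.64 to 0.50. With loess, the immediate early gene Egr1 differed by -0.64 ± 0.24 (adjusted p = 0.337), and Phlda1, an ERK-induced gene, by 0.50 ± 0.17 (adjusted p = 0.27).

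Myc encodes a transcription factor that drives ribosome production and growth, and it lay below the reference RNA on all 17 arrays. Its log2 ratios were -0.88, -0.67, -0.89 and -0.66 at 75 mg/kg, against -1.41, -1.06, -0.98, -1.06 and -0.87 in control. Control replicate 5 alone reached the range of the 75 mg/kg arrays, and control replicate 1 was the lowest of all arrays. Means were -1.08 ± 0.20 in control, -0.83 ± 0.12 at 25 mg/kg, -0.97 ± 0.11 at 50 mg/kg and -0.77 ± 0.13 at 75 mg/kg (SD). The order did not follow the dose, since 50 mg/kg lay nearer control than 25 mg/kg did, a step of 0.14 against a larger SD of 0.12. The change was 0.24 ± 0.11 at 25 mg/kg (adjusted p = 0.999) and 0.30 ± 0.11 at 75 mg/kg, or 1.23-fold (unadjusted p = 0.0114, limma adjusted p = 0.288). Within slides 1, 2 and 3 the change at 75 mg/kg was 0.35, 0.24 and 0.22.

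The genes around Myc gave small differences. Among 10 tested genes of its network of partners and antagonists, 0 passed, 3 were positive and the median was -0.08, or 0.18 with median centring, where all genes shifted by 0.19. Mlx, a partner of the related MLXIP protein, differed by 0.33 ± 0.14 (adjusted p = 0.433), and Mxd1, which opposes MYC, by -0.24 ± 0.15 (adjusted p = 0.643), with -0.085 ± 0.14 on its second probe. The 19 tested MYC targets, most of them in ribosome production and metabolism, all had a positive change at 75 mg/kg, yet 0 of 19 passed and the median was 0.11. With median centring 19 of 19 were also positive and the median was 0.53, against 0.19 for all genes, and again 0 passed. Their range was 0.01 to 0.73, with Polr1b, a subunit of RNA polymerase I, at 0.73 ± 0.44 (adjusted p = 0.616), and Hspe1, a mitochondrial chaperonin, at 0.41 ± 0.18 (adjusted p = 0.421). The other 2 Hspe1 probes gave 0.0042 ± 0.22 and 0.50 ± 0.21. The direction was not shared by every gene in other settings: 16 of 19 were positive with Agilent's processed signals, 17 of 19 with the deposited log2 table, and 15, 17 and 13 of 19 within slides 1, 2 and 3. The mean log2 ratio of the 19 genes was -0.84 to -0.60 on the 75 mg/kg arrays, which overlapped -1.02 to -0.79 on the control arrays.

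Ccnd1, the D-type cyclin gene of the list, was below the reference RNA on all 17 arrays, and its highest values were not at the highest dose. At 25 mg/kg the log2 ratios were -0.23, -0.31, -0.46 and -0.19, against -0.82, -0.82, -0.65, -0.68 and -0.34 in control. At 75 mg/kg they were -0.25, -0.48, -0.55 and -0.35. Control replicate 5 lay among the dosed arrays, and the other 4 control arrays lay below all arrays of both doses. Means were -0.66 ± 0.20 in control, -0.30 ± 0.12 at 25 mg/kg, -0.53 ± 0.16 at 50 mg/kg and -0.41 ± 0.13 at 75 mg/kg (SD), and neighbours in the order control, 50, 75 and 25 mg/kg differed by less than the larger SD. The change was 0.36 ± 0.11 at 25 mg/kg (unadjusted p = 0.00476, limma adjusted p = 0.999) and 0.25 ± 0.11 at 75 mg/kg (unadjusted p = 0.0373, adjusted p = 0.447). Within slides 1, 2 and 3 the change at 75 mg/kg was 0.57, 0.15 and -0.02. The mean of the glandular markers given above correlated with Ccnd1 at r = 0.40 over the 17 arrays after subtracting group means, and its part in the Ccnd1 values was not tested.

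Rb1, the tumour suppressor that cyclin D kinases inactivate, lay close to control and, with the loess scaling, close to the reference RNA. With median centring Rb1 averaged -0.94 in control and -0.66 at 75 mg/kg, so its level relative to the reference depended on the scaling. Its probe, spotted 10 times, gave 0.16, 0.15, 0.08 and 0.33 at 75 mg/kg, against 0.14, 0.59, -0.08, 0.01 and 0.30 in control. The control arrays spanned the whole range of the other groups. Means were 0.19 ± 0.26 in control, 0.22 ± 0.13 at 25 mg/kg, 0.10 ± 0.17 at 50 mg/kg and 0.18 ± 0.11 at 75 mg/kg (SD), with neighbours within their SD. The change at 75 mg/kg was -0.01 ± 0.13 (limma adjusted p = 0.986), with a 95% interval of -0.28 to 0.25. The highest control array was replicate 2, the one with high B cell markers. Without it the change at 75 mg/kg was 0.09, and the part of those cells in the Rb1 value was not tested.

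Among 22 tested genes of the RB pathway, 0 passed at 75 mg/kg, 10 were positive and the median was -0.04. With median centring 19 were positive and the median was 0.18, against 0.19 for all genes. E2f7, a repressing E2F, passed as higher in that setting, at 0.68 ± 0.12 (adjusted p = 0.012), and with slide as a block, at 0.52 ± 0.12 (adjusted p = 0.0349). With loess and no block, Cdk4, the kinase of cyclin D1, differed by -0.04 ± 0.09 (adjusted p = 0.933), while its other 2 probes gave 0.19 and 0.22. E2f2, an activating E2F, differed by -0.57 ± 0.46 (adjusted p = 0.744). That value rested on control replicate 2, the array with high B cell markers, where E2f2 was 1.83, and without it the change was 0.02. The 18 tested E2F targets, replication genes for the most part, had 0 calls and a median of 0.02, but the slides did not share it: the medians were -0.26, 0.18 and 0.52 within slides 1, 2 and 3. Uhrf1, which maintains DNA methylation, differed by 0.52 ± 0.28 (adjusted p = 0.567), and Rrm1, the large subunit of ribonucleotide reductase, by 0.45 ± 0.21 (adjusted p = 0.462).

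**Figure D2:**
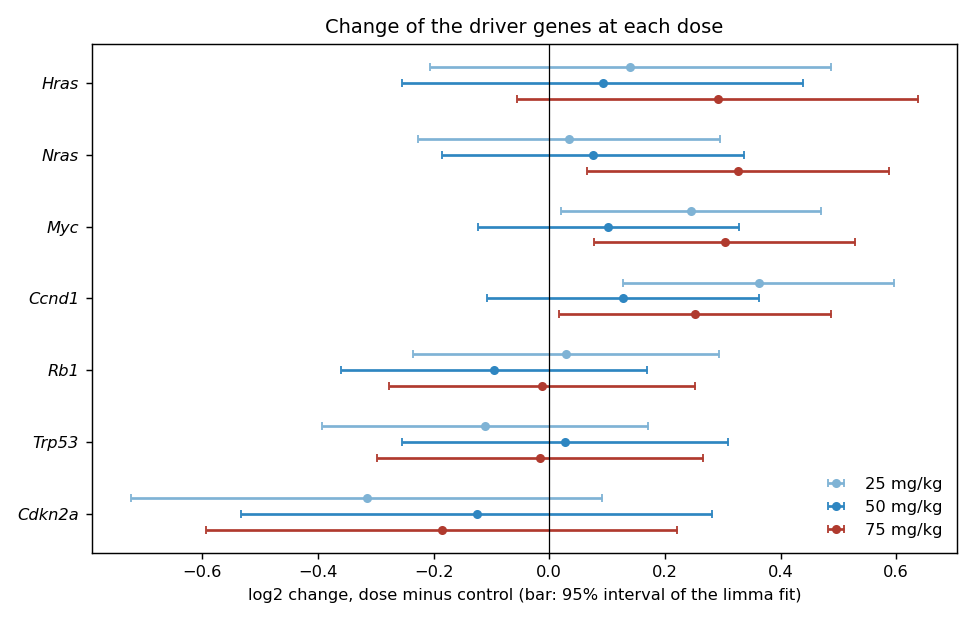
Log2 change, dose minus control (x axis), for the 7 driver genes (y axis) at 25, 50 and 75 mg/kg BaP, with bars for the 95% interval of the limma fit. Intervals of Nras, Myc and Ccnd1 at 75 mg/kg and of Myc and Ccnd1 at 25 mg/kg lie above 0 before adjustment over all genes, and none passed after it.

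No change of the Trp53 transcript was detected. Its probe was dim, at 73 to 148 units of Cy5 over a local background of 63 to 73.5, and was well above background on 16 of 17 arrays, all but control replicate 4. The log2 ratios were -0.88, -0.76, -0.85 and -1.08 at 75 mg/kg, against -0.86, -0.76, -0.70, -0.78 and -1.29 in control. Control replicate 5 and 75 mg/kg replicate 20 were the lowest of their groups, and both lay on slide 3. Means were -0.88 ± 0.23 in control, -0.99 ± 0.11 at 25 mg/kg, -0.85 ± 0.27 at 50 mg/kg and -0.89 ± 0.13 at 75 mg/kg (SD), with neighbours in the order within their SD. The change at 75 mg/kg was -0.02 ± 0.13 (limma adjusted p = 0.983), with a 95% interval of -0.30 to 0.27. The offset of the background correction shrinks the ratios of so dim a probe, and with Agilent's processed signals the change was 0.23.

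Some targets of p53 rose at 75 mg/kg, where the Trp53 transcript did not pass the test. Of 23 tested targets, 5 passed as higher and 0 passed as lower. The change was positive in 14 and negative in 9, with a median of 0.18. The median was 0.34 with processed signals, with 4 targets passing, and 0.41 with median centring, with 3 passing. The value of 0.41 includes the upward shift of all genes under median centring, given above. Of all genes, 0.893% passed and were higher and 0.201% were lower. The targets were listed with earlier results of these arrays known, so their count is no independent evidence of a direction. Pmaip1, which encodes the death-promoting protein NOXA, had log2 ratios of -0.80, -1.10, -1.10 and -0.75 at 75 mg/kg, against -2.15, -1.53, -2.05, -1.94 and -2.30 in control. The groups did not overlap, and the change was 1.06 ± 0.14 (limma adjusted p = 0.00112), although Pmaip1 was well above background on only 1 of 5 control arrays. It was well above background on 4 of 4 arrays at each dose, so it met the filter through the dosed arrays. With processed signals, which hold no offset, its change was 3.34 ± 0.51 (adjusted p = 0.0074). With control near background, the size of this change is therefore uncertain. Trp53inp1, which encodes a nuclear protein induced by p53, gave 0.41, 0.47, 0.43 and 0.47 at 75 mg/kg, against -0.48, -0.01, -0.27, -0.42 and -0.73 in control. It also passed at 50 mg/kg, with a change of 0.72 ± 0.11 (adjusted p = 0.0328), and a second probe gave 0.21 ± 0.10 at 75 mg/kg and did not pass.

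Bbc3, which encodes the death-promoting protein PUMA, rose by 0.80 ± 0.13 (adjusted p = 0.00432). Aen, an apoptosis-enhancing nuclease gene, rose by 0.48 ± 0.10 (adjusted p = 0.0351), with 0.45 ± 0.12 on its second probe, and Bax, a pore-forming effector of apoptosis, by 0.39 ± 0.09 (adjusted p = 0.0497). Calls for Trp53inp1 and Bbc3 held in all 27 alternatives, whereas Aen lost its call in 8 of 27 and Bax in 24 of 27. The call for Pmaip1 held in the 26 alternatives that tested it, but these reuse control values near background and are no independent support. Pmaip1 was well above background on 13 of 17 arrays, so it was not tested under the filter of all 17 arrays. Leaving out control replicate 3 or 4, or 75 mg/kg replicate 17, 18 or 20, gave Aen an adjusted p of 0.0847, 0.0964, 0.0695, 0.153 or 0.136. Bax was within 0.33 to 0.42 without any 1 array, with an adjusted p of 0.0384 to 0.172. Cdkn1a, the cell cycle inhibitor p21, differed by 0.39 ± 0.19 (adjusted p = 0.521), with 0.52 ± 0.16 on its second probe. Whether the targets changed more than Trp53 itself was not tested. On the same arrays all 8 smooth muscle markers had a negative change, with a median of -0.44 and 0 passing, and their mean log2 ratio was 3.74 to 4.29 at 75 mg/kg and 4.18 to 4.85 in control. Of 6 tested macrophage and dendritic cell markers, Cd207, a receptor of Langerhans cells, passed as higher, at 0.98 ± 0.22 (adjusted p = 0.0437), and the median was 0.29. The mean of those markers was -0.19 to -0.04 at 75 mg/kg and -0.66 to 0.29 in control. The highest control value, 0.29, was that of control replicate 2. Every other control array was at or below -0.51, and so below all 75 mg/kg arrays. The part of these cells in the p53 target values was not tested.

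Of 15 tested genes of the p53 family and its regulators, 0 passed at 75 mg/kg, 10 were positive and the median was 0.08. Mdm2 differed by 0.02 ± 0.14 (adjusted p = 0.984). Ppm1d, a phosphatase that ends p53 signalling, was higher on all 75 mg/kg arrays than on any control array, at 0.37 ± 0.13 (adjusted p = 0.275). Trp63, which encodes the p63 protein of squamous basal cells, differed by 0.60 ± 0.26 (adjusted p = 0.446), and its second probe by -0.23 ± 0.23. With slide as a block the first of these probes passed, at 0.61 ± 0.14 (adjusted p = 0.0412).

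**Figure D3:**
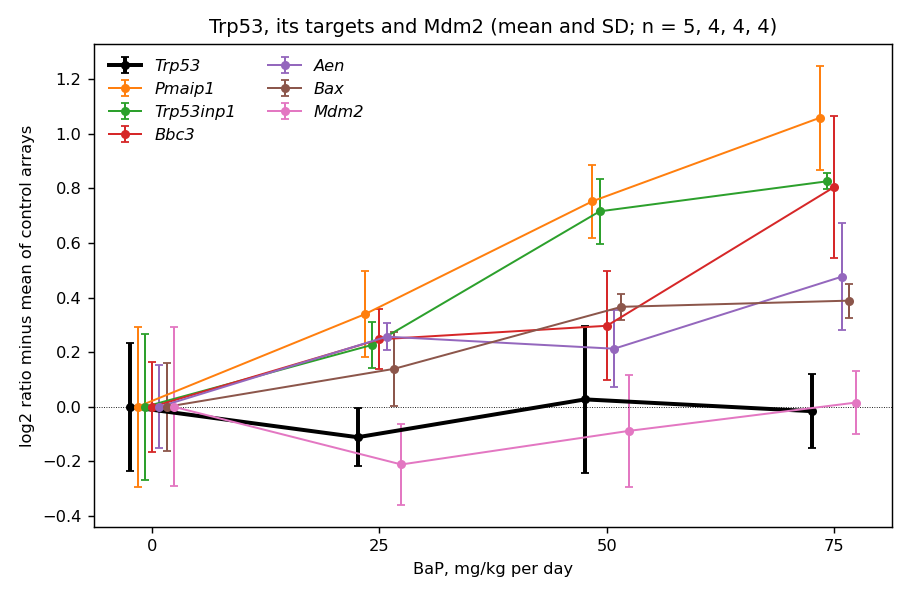
Log2 ratio minus the mean of the control arrays (y axis) against BaP dose in mg/kg per day (x axis) for Trp53, Mdm2 and the 5 p53 targets that passed at 75 mg/kg, as group means with SD (n = 5 in control, 4 at each dose). At 75 mg/kg Trp53 and Mdm2 lie at -0.02 and 0.02 and the targets between 0.39 and 1.06, while at 25 mg/kg Mdm2 lies at -0.21 and Bax at 0.14.

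Cdkn2a was the member farthest below the reference RNA, and it was near the detection limit in forestomach. Its main probe, named for the p19Arf transcript (NM_009877), read 79 to 169.5 units over a background of 63 to 75, and was well above background on 16 of 17 arrays. The log2 ratios were -4.90, -5.12, -5.09 and -5.24 at 75 mg/kg, against -4.82, -4.89, -4.69, -4.63 and -5.49 in control. Control replicate 5, on slide 3, was lower than every 75 mg/kg array, and the other 4 control arrays were higher than all of them. Means were -4.90 ± 0.34 in control, -5.22 ± 0.19 at 25 mg/kg, -5.03 ± 0.45 at 50 mg/kg and -5.09 ± 0.14 at 75 mg/kg (SD), with neighbours within their SD. The median array lay 30.7-fold below the reference RNA. With Agilent's processed signals, which are not compressed by the offset, the 75 mg/kg mean was -6.44 and the control mean -6.63. The change at 75 mg/kg was -0.19 ± 0.19 (limma adjusted p = 0.809), with a 95% interval of -0.59 to 0.22. Its sign depended on the processing, at 0.19 with processed signals and 0.15 with median centring. With median centring all genes shifted by 0.19, so Cdkn2a stayed below the median of all genes there.

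A second Cdkn2a probe, for the same transcript, passed the detection criterion on 1 of 17 arrays and was not tested. The position of either probe on the transcript was not used here, so p16Ink4a and p19Arf cannot be told apart. Among 12 tested regulators of the locus, such as the Polycomb genes Bmi1 and Ezh2, 0 passed at 75 mg/kg, 6 were positive and the median was 0.00, against -0.05 with processed signals. Ets1, known in human cells to activate p16Ink4a transcription, differed by -0.48 ± 0.40 (adjusted p = 0.746), and without control replicate 2, where it was 1.22, by 0.02. Bmi1, which represses the locus, differed by -0.18 ± 0.13 (adjusted p = 0.724), with 0.01 ± 0.14 on its second probe. Cdkn2b, the neighbouring gene for p15Ink4b, differed by 0.66 ± 0.26 (adjusted p = 0.382), with 0.29 ± 0.16 on its second probe.

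**Figure D4:**
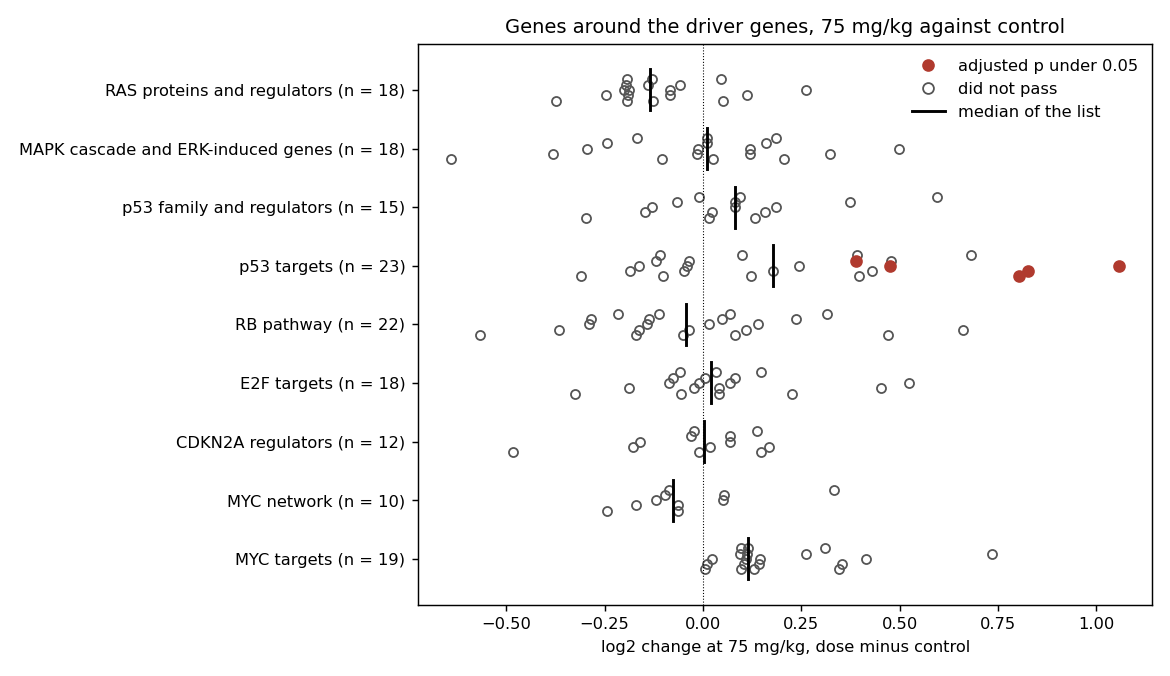
Log2 change at 75 mg/kg, dose minus control (x axis), for the 155 tested genes of the 9 pathway lists (y axis), with filled points for an adjusted p under 0.05 and a bar for each list's median. The 5 filled points are all p53 targets, and the other 8 lists hold none with the loess scaling and no slide block.

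Over the 9 lists, 0 of the 155 tested pathway genes passed at 25 mg/kg, 1 passed at 50 mg/kg and 5 passed at 75 mg/kg. Of all genes tested, 0.014%, 0.0468% and 1.09% passed at these doses. The calls in the lists were all p53 targets, which were listed with earlier results of these arrays known. The 7 driver genes themselves had a median change of 0.25 at 75 mg/kg, with 4 of 7 positive, against -0.01 and 48.1% for all genes tested.

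After subtracting the group means, Trp53 and Cdkn2a varied together over the 17 arrays (r = 0.88), as did Hras and Nras (r = 0.84), while Trp53 and Nras ran opposite ways (r = -0.73). These correlations describe arrays that share slides and differ in brightness. The members also varied with the median Cy5 signal of the array, at r = -0.79 for Cdkn2a, -0.72 for Trp53, 0.67 for Rb1, 0.63 for Nras, 0.59 for Hras, 0.43 for Ccnd1 and 0.13 for Myc. The slide 3 array was the lowest of its group in 3 of 4 groups for both Trp53 and Cdkn2a, and the difference of slide 3 from the other slides was -0.34 for Trp53 and -0.47 for Cdkn2a. With slide in the model, the residual SD of Trp53 was 0.12, against 0.20 without it. The part of brightness or slide in these values was not tested.

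**Figure D5:**
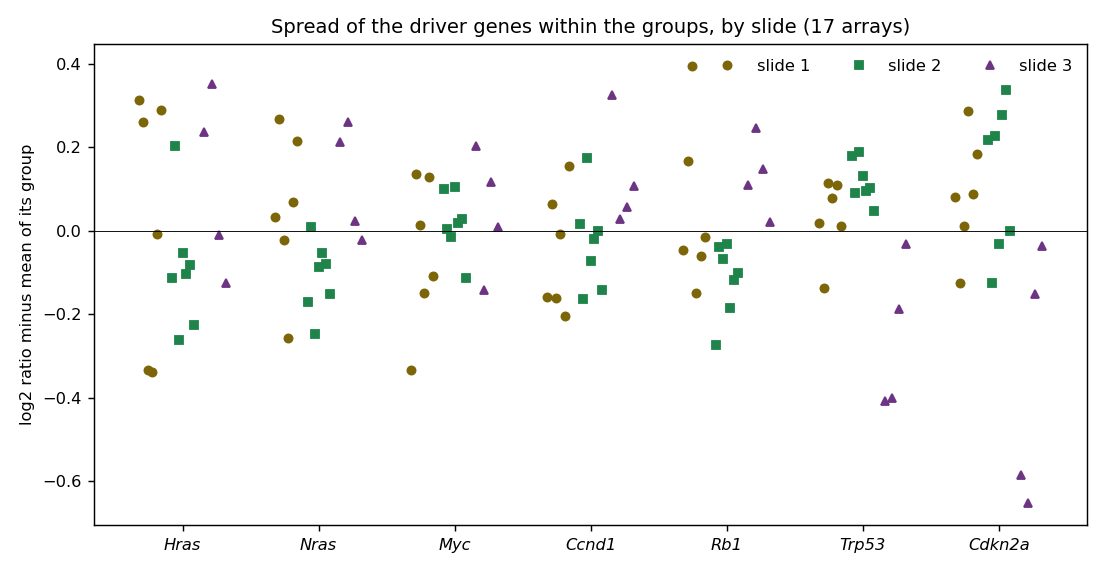
Log2 ratio of each array minus the mean of its group (y axis) for the 7 driver genes (x axis), by slide. Slide 3 arrays lie below 0 for Trp53 and Cdkn2a, and slide 3 exceeds slides 1 and 2 by 0.17 for Rb1.

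The genes whose residual pattern was most like each member were found among all named genes. For Trp53 they were Itgal, a leukocyte integrin, and Slc16a3, a lactate transporter (both r = 0.96), and for Cdkn2a Gm5523 (0.94) and Eef1d, a translation factor (0.93). For Hras they were Hprt, a purine salvage enzyme, and Ly6g6e (both 0.96), and for Nras Esrp2, an epithelial splicing regulator, and Sowahc (both 0.94). For Rb1 they were Smchd1, a chromatin protein (0.94), and Il10ra, the interleukin 10 receptor (0.91). For Ccnd1 they were Ywhag, a 14-3-3 protein (0.89), and Klf16 (0.87), and for Myc Micall1 and Slpi, a secreted protease inhibitor (both 0.80). All are Pearson correlations over 17 arrays, chosen as the highest of many, and carry no test.

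Cell type markers moved with some members over the same arrays. The mean of 6 endothelial markers correlated with Cdkn2a at r = -0.88 and with Trp53 at -0.71, and that of 5 tested mast cell markers with Trp53 at -0.75. Endothelial markers correlated with Nras at 0.61, Rb1 at 0.61 and Hras at 0.56. Squamous markers correlated with Nras at 0.59, and B cell markers with Hras at -0.62. Control replicate 2, which stood apart in B cell markers, also had the lowest Hras value of all arrays, 0.79. The part of that array in the correlation was not tested. For Myc the correlations ranged from -0.17 to 0.31 over the 11 marker lists. Between the groups, the endothelial mean was 0.85 to 1.05 at 75 mg/kg and 0.81 to 1.09 in control, so the groups overlapped. The marker means also differed by slide. The mast cell mean was 2.91 to 3.12 on the slide 3 arrays and at most 2.61 on the other arrays. The endothelial mean was 0.94 to 1.09 on slide 3 and 0.73 to 1.13 on the other slides. The summed normalized Cy5 signal of the endothelial markers was 1968 to 2195 units on slide 3 and at least 2264 units elsewhere. The part of cell composition or slide in these correlations and in the values of the members was not tested.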

How the data were processed

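The assay was a 2-colour Agilent array (17 arrays), forestomach in Cy5 and reference RNA in Cy3. The authors deposited 1 table of spot intensity values per array (62976 spots, 3671 of them controls), from the software Feature Extraction, version 10.7.3.1, per the file headers. The deposited series table held log2 values, which matched loess-normalized log2 Cy5 over Cy3 with the background left uncorrected (r = 0.998 to 0.999 over probes); it served as an alternative. Per the labels' protocols, 200 ng of RNA with an integrity number above 6.6 was labelled per array.

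Median signals were corrected with normexp (offset 50) and normalized by loess in each array, with control spots at weight 0; control spots and outlier spots were dropped, and spots of a probe were averaged. Probes detected clearly over background in Cy5 on 4 or more arrays were kept (27577), with the brightest probe for each gene (21384 genes). A probe without a symbol counted as a gene under its transcript or probe name, and shares of all genes include these. Of 55681 probes, 26413 had 1 gene symbol through the GRCm38.p6 table and 29268 had none. The array design names another build, so probes have no coordinates here.

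All 17 arrays entered 1 fit with 4 group means in limma 3.58.1 (R 4.3.3; two-sided, Benjamini-Hochberg over all genes, threshold 0.05). Errors are SE of the fit (SD where stated), with n = 5 for control and n = 4 per dose. The design text calls the samples biological replicates. The fit was tested on simulated data. The 7 genes, the 9 pathway lists and the cell type markers were chosen with earlier results of these data known. Named are all 7 genes with all probes, of each list the genes that passed (at most 5) or otherwise the 2 with the largest change at 75 mg/kg, close partners (Mdm2, Cdkn1a, Cdk4, Cdkn2b; another is not reported here), and the 2 genes most like each member; Ezh2 and the squamous markers are given as examples of lists, and Cd207, Dusp4 and E2f7 were named after their values were seen.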

Additional observations from a re-analysis of the deposited data

Results flagged for a closer look

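Arrays were checked for values that lay far from the rest of their group, over the 11 probes and 4 groups. Chance marks about 1 in 20 groups, and 4 of 44 were marked. Trp53 was -1.29 on control replicate 5, with the next array at -0.86, and -1.25 on 50 mg/kg replicate 15, with the next at -0.75. Rb1 was 0.34 on 50 mg/kg replicate 15, with the next at 0.03. These 3 values came from slide 3. A second Nras probe (A_52_P649296) was -0.13 on 75 mg/kg replicate 19, with the next at 0.42.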

How the results depend on the processing

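In all 27 alternatives, 0 driver genes passed in any comparison, and the lowest adjusted p was 0.125, for Nras on the line over dose with slide as a block. With all arrays, 3, 10 and 234 genes passed at 25, 50 and 75 mg/kg, 13 for 75 against 25 mg/kg and 284 on the line (191 higher and 43 lower at 75 mg/kg). With slide as a block these were 1, 30, 424 (331 higher, 93 lower), 32 and 548. With median centring they were 0, 1, 145 (142 higher, 3 lower), 0 and 171 (165 higher, 6 lower). Processed signals gave 1 at 25 mg/kg and 0 for 75 against 25 mg/kg, no filter gave 1 at 25 and 6 at 50 mg/kg, and the mean of probes gave 6 at 50 mg/kg. With only the groups compared, 153 passed at 75 mg/kg (137 higher, 16 lower) and 0 for 75 against 25 mg/kg. Without slide 3, an alternative chosen after seeing the data, 1 and 2 passed at 25 and 50 mg/kg and 0 for 75 against 25 mg/kg. Leaving out 1 array at a time gave 0 to 2, 2 to 32, 118 to 288, 0 to 37 and 186 to 400. At 75 mg/kg the count was 142, 153 and 129 without control replicates 1, 3 and 4, and 119, 118 and 129 without 75 mg/kg replicates 17, 18 and 20. On the line it was 186 without 75 mg/kg replicate 18. The smaller counts moved by over 1.5 times for most arrays left out. At 50 mg/kg the count was highest, at 28 without control replicate 2 and 32 without 50 mg/kg replicate 15, and for 75 against 25 mg/kg at 24 without 50 mg/kg replicate 12 and 37 without 75 mg/kg replicate 19.

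At 75 mg/kg, median centring moved Nras to 0.62, Myc to 0.62, Ccnd1 to 0.63 and Hras to 0.64, against 0.33, 0.30, 0.25 and 0.29 with loess, and processed signals moved Ccnd1 to 0.14 and Myc to 0.19. Other changes turned sign. With processed signals they were Trp53 (0.047 at 25, 0.23 at 75 mg/kg), Nras (-0.044 at 25), Rb1 (-0.023 at 25), Cdkn2a (0.045 at 50, 0.19 at 75) and Myc (-0.011 at 50). With median centring they were Cdkn2a (0.028 at 50, 0.15 at 75), Rb1 (0.047 at 50, 0.29 at 75) and Trp53 (0.13 at 75). In that setting all genes shifted by 0.19 at 75 mg/kg, above the values of Cdkn2a and Trp53 and below that of Rb1. Rb1 was -0.0011 at 25 and 0.0015 at 75 mg/kg with the slide block, and -0.0029 at 25 mg/kg with the deposited table. Trp53 at 75 mg/kg was 0.0297 with that table and 0.0037 without background correction. Nras was -0.0093 at 50 mg/kg with the mean of probes. Leaving out 1 array at a time, Trp53 spanned -0.074 to 0.16 at 50 and -0.12 to 0.047 at 75 mg/kg. Rb1 spanned -0.0396 to 0.13 at 25, -0.18 to 0.0032 at 50 and -0.081 to 0.087 at 75 mg/kg. Nras spanned -0.055 to 0.12 at 25 and -0.011 to 0.16 at 50 mg/kg, and at 50 mg/kg Hras spanned -0.024 to 0.18 and Cdkn2a -0.27 to 0.092. The cause of these changes was not tested.

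With the filter of all 17 arrays, Trp53 and Cdkn2a were not tested. Both lie near background, which limits what can be said of them. No paired analysis was possible because the groups share no replicate numbers; slides, which hold arrays of all groups, were used as a block and gave the within-slide values instead.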
